A study of Mus musculus with 2 samples.

Results

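The clustered protocadherin genes were taken as the protein-coding genes of the mouse annotation (GENCODE M21, genome build mm10) on chromosome 18 whose symbols begin with Pcdha, Pcdhb or Pcdhg. The rule gave 57 genes of 21938 protein-coding genes, and it used only names and positions. The Pcdha cluster held 14 genes, the Pcdhb cluster 22 and the Pcdhg cluster 21. Of the 57 members, 5 are called C-type (Pcdhac1, Pcdhac2, Pcdhgc3, Pcdhgc4 and Pcdhgc5), and the other 52 comprised 12 Pcdha, 22 Pcdhb, 12 Pcdhga and 6 Pcdhgb genes. All members lie on the plus strand, from the start of Pcdha1 at 36930184 to the end of the shared Pcdhg exons at 37841873. Because gene bodies overlap within the Pcdha and Pcdhg clusters, each member was measured only over the 500 bp on either side of its annotated transcription start site (TSS). The closest 2 starts were 4131 bp apart, so the windows did not overlap.

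Chromatin accessibility was measured by scATAC-seq in nuclei of wild-type C57BL/6J male mice 8 to 12 weeks of age, 48 h after middle cerebral artery occlusion and reperfusion (stroke) or after sham surgery. The stroke library was made from the pooled ipsilateral hemispheres of 4 brains and the sham library from 4 pooled brains, so each condition was 1 library and surgery, the tissue taken and the library cannot be told apart. No comparison had a replicate. Values are given as counts of fragments with exact 95% intervals (Poisson for levels, binomial for shares, conditional binomial for ratios), which cover counting error only.

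Clustered protocadherins are cadherin-family adhesion proteins of the neuronal surface. In the Pcdha and Pcdhg clusters each variable exon has its own promoter and is spliced to constant exons that the cluster shares, whereas each Pcdhb gene is a single exon. The alternate promoters, which are all but the C-type ones, are known to be chosen in a largely random way so that each neuron uses a small set, and the resulting isoform combination serves self-recognition of neurites. C-type promoters are known to be used more widely. The choice depends on CTCF and cohesin, which loop a chosen promoter to enhancers beyond the variable exons, and on DNA methylation of the promoters that are not chosen.

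After the filter on fragments in peaks, 6817 of 6979 called sham barcodes and 5054 of 8740 called stroke barcodes remained, with 73449269 and 52773775 fragments and medians of 10353 and 9898 fragments per nucleus. Levels are fragments per 1000000 fragments of the nuclei (CPM), and 1 fragment was worth 0.0136 CPM in sham and 0.0189 CPM in stroke. The libraries stood apart in quality. Among called barcodes the median percent of fragments in peaks was 38.5% in sham and 24.8% in stroke, and among the nuclei kept it was 38.8% and 33.2%. Read pairs of low mapping quality were 5.09% of those of all barcodes in sham and 9.25% in stroke. Their part in the ratios of stroke over sham was not tested. Counts summed over all TSS windows came to 15.3% of sham fragments and 13.7% of stroke fragments, so comparisons are also given after scaling to these promoter fragments. In these sums a fragment was counted in every window it overlapped. Both libraries kept 42 barcodes of the same sequence.

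Nuclei were assigned to classes by gates on marker genes, read over the 50 nearest nuclei, the nucleus itself included, with the protocadherin region left out of the embedding. Neighbours were drawn from both libraries together. Those from the nucleus's own library made up 76.1% for sham and 65.2% for stroke, where the libraries held 57.4% and 42.6% of nuclei. Glutamatergic neuron-like nuclei numbered 2334 in sham and 1061 in stroke, GABAergic neuron-like 1760 and 1062, and astrocyte-like 470 and 561. OPC-like nuclei numbered 117 and 121, oligodendrocyte-like 95 and 143, vascular and leptomeningeal-like 191 and 271, and microglia and other myeloid-like 25 and 231. The choroid plexus epithelial gate passed 48 sham nuclei and 2 stroke nuclei, and the latter are not called by that name, since they held 0 fragments of its markers themselves. The gates fix that the markers of a class are high in it, so their levels describe the gates and are no independent check of the names. Of these markers, 6 of 8 were at least 2-fold higher in glutamatergic neuron-like nuclei than in all other nuclei, 8 of 8 in GABAergic neuron-like and 9 of 9 in astrocyte-like nuclei. Each class had at least 1 of its markers among its 10 leading genes, and the only leading gene from another list was the OPC marker Gpr17 in oligodendrocyte-like nuclei. In glutamatergic neuron-like nuclei 3 of the 10 were markers. Vmn1r233 (3.95) and Olfr464 (3.66), which are not markers, came ahead of the marker Neurod6 (3.23). These values are folds over the other nuclei, with 1 CPM added to each level. The classes are ranges of a score, and many nuclei were borderline. The glutamatergic gate stood at a score of 0.317, with a top score of 0.907 and class medians of 0.498 in sham and 0.451 in stroke. Within 10% of the top score from the gate, on either side of it, lay 1024 sham and 724 stroke nuclei, against 542 and 326 for the GABAergic gate and 38 and 61 for the astrocyte gate. No gate was passed by 1736 sham and 1533 stroke nuclei, and 41 and 69 passed more than 1 and were left out of the classes.

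The 5 C-type promoters lay above the middle of all genes and the other 52 lay below it. The median level over the C-type members was 6.49 CPM in sham and 4.72 in stroke, against medians of 3.0 and 3.06 CPM over all protein-coding genes. The median over the other 52 members was 0.395 CPM in sham and 0.398 in stroke, and their highest value was 2.04 in sham and 2.37 in stroke. No member of the 52 therefore reached the all-gene median in either library, and no C-type member lay below it. The C-type members held 59.3% of all member fragments in sham (2878 of 4857) and 55.8% in stroke (1751 of 3140). The Vmn2r genes, which encode pheromone receptors of the vomeronasal organ and served as closed promoters, had medians of 0.0136 and 0.0568 CPM, below those of the 52. These medians stand for 1 fragment in sham and 3 in stroke, and how well reads could be placed at Vmn2r starts was not tested.

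**Figure D1:**
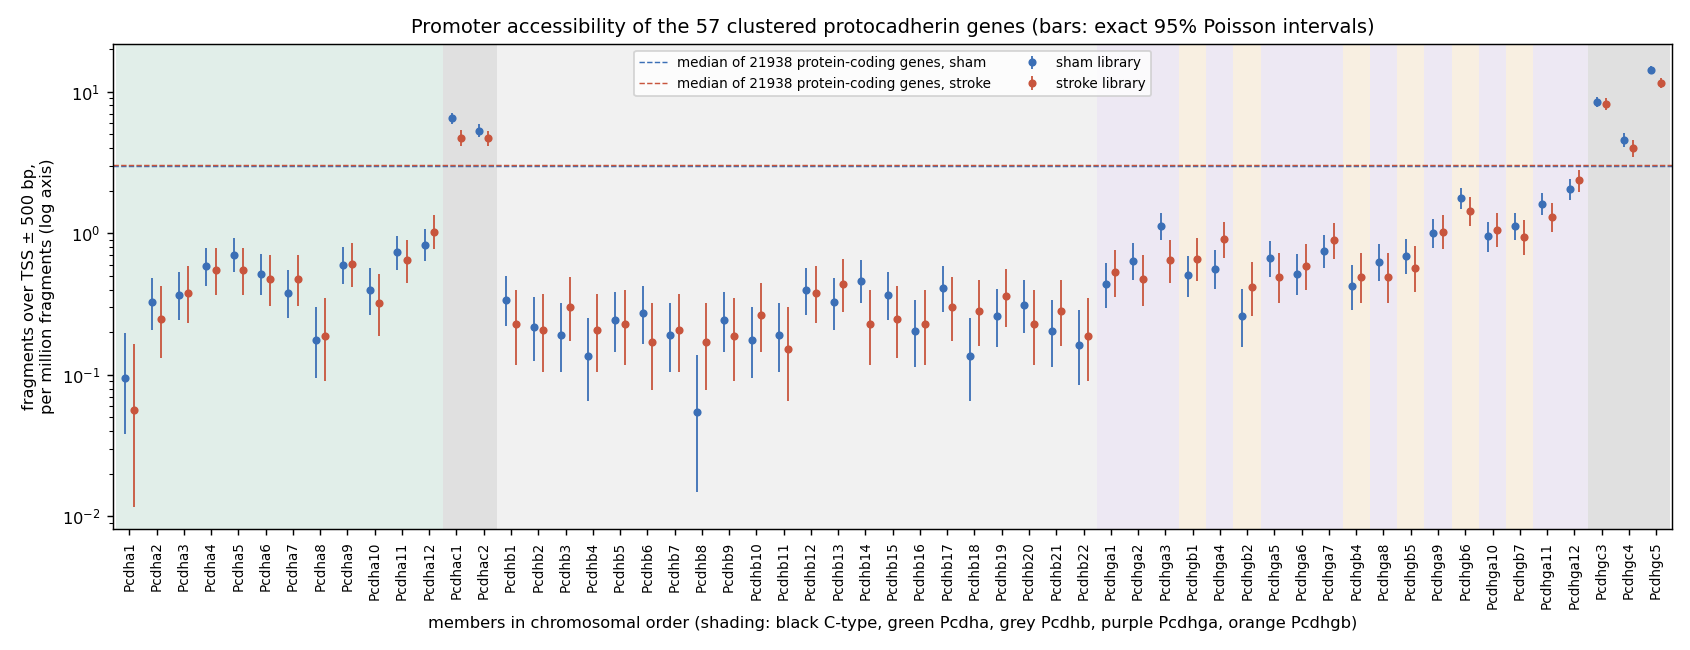
Level of each of the 57 members in chromosomal order, as CPM over the TSS and 500 bp on either side on a log axis, with blue points for sham, red points for stroke and exact 95% Poisson intervals as bars. The 5 C-type members lie above the dashed all-gene medians of 3.0 and 3.06 CPM, and all other members lie below them.

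Pcdhgc5, a C-type gene of the Pcdhg cluster whose protein has been found at GABAergic synapses, had the highest level of all members. It held 1050 fragments in sham, or 14.3 CPM (13.4 to 15.2), and 610 in stroke, or 11.6 CPM (10.7 to 12.5), which placed it at percentiles 82.6 and 79.6 of all protein-coding genes. Pcdhgc3, which is known to promote dendrite branching in cortical neurons, followed with 8.51 CPM in sham (7.86 to 9.20) and 8.22 in stroke (7.47 to 9.04). The intervals of these members did not overlap each other or those of any other member in either library. Pcdhac1 had 6.49 CPM in sham (5.92 to 7.10) and 4.72 in stroke (4.15 to 5.34). Pcdhac2, known for the tiling of serotonergic axons, had 5.32 (4.81 to 5.88) and 4.68 (4.11 to 5.30). Pcdhgc4, known to be needed for the survival of neurons, had 4.56 (4.09 to 5.08) and 4.00 (3.48 to 4.58). In sham the intervals of Pcdhac2 and Pcdhgc4 overlapped, and in stroke those of Pcdhac1, Pcdhac2 and Pcdhgc4 all overlapped.

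Within the Pcdha array, Pcdha1, the first promoter, was the lowest member with 7 fragments in sham (0.0953 CPM) and 3 in stroke (0.0568 CPM), and Pcdha12, the last alternate promoter, was the highest with 0.831 CPM in sham (0.635 to 1.07) and 1.02 in stroke (0.769 to 1.34). Levels were higher toward the end of the array. Across the 12 alternate Pcdha genes, Spearman's rho between position and level was 0.650 in sham and 0.611 in stroke, with all points of a library sharing its depth. A median of 84.3% of the 50-base stretches in a Pcdha window occurred at a single place in the genome, with 75.3% at Pcdha10, against medians of 92.3% in the Pcdhgb windows and 100% in the Pcdhb and C-type windows. How well read pairs from the other stretches were placed was not tested.

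The Pcdhb genes, which encode proteins without the shared cytoplasmic part of the other clusters, were the lowest per gene. Pcdhb8 was lowest in sham with 4 fragments (0.0545 CPM), and it had 9 in stroke (0.171 CPM). Pcdhb14 was highest in sham with 34 fragments (0.463 CPM), and it had 12 in stroke (0.227 CPM). The summed level of the 22 genes was 5.50 CPM in sham (4.98 to 6.06) and 5.50 in stroke (4.88 to 6.17). No end of this array was favoured to the same degree, with rho between position and level of 0.104 in sham and 0.312 in stroke. The order of the 22 genes was also less alike in the 2 libraries (rho 0.393) than the order of the 12 Pcdha genes (rho 0.961), at a depth of 4 to 34 sham fragments a gene.

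In the Pcdhg array, Pcdhga and Pcdhgb genes are interleaved, and levels tended to be higher toward the C-type end. Pcdhga12, the last alternate promoter before Pcdhgc3, had 2.04 CPM in sham (1.73 to 2.40) and 2.37 in stroke (1.97 to 2.82), the highest values among the 52. Pcdhga1, the first promoter of the array, had 0.436 (0.298 to 0.615) and 0.531 (0.353 to 0.767). Pcdhgb6 was the highest Pcdhgb gene with 1.77 CPM in sham (1.48 to 2.1) and 1.44 in stroke (1.13 to 1.80), and Pcdhgb2 was the lowest with 0.259 and 0.417. The rho between position and level was 0.664 in sham and 0.746 in stroke over the 12 Pcdhga genes, and 0.771 and 0.6 over the 6 Pcdhgb genes. Over all 57 members the sham and stroke levels were ordered alike (rho 0.922), and so were those of the 52 without the C-type genes (rho 0.898).

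The low signal of the alternate promoters, summed over members, was still centred on their starts. The window was compared with its own surroundings, from 1500 to 2500 bp on either side, with both libraries summed and levels taken per base. The C-type windows held 4.95 times the density of their surroundings (4.69 to 5.22), with 14.2 at Pcdhac1 (11.6 to 17.7) and 2.44 at Pcdhgc4 (2.15 to 2.77). The other 52 held 2.66 times (2.52 to 2.80), and all protein-coding genes 7.75 times. These values are sums over genes, in which genes with many fragments weigh more. The median of single genes was 4.72 over the C-type members and 2.53 over the 52. Over all genes with at least 20 fragments it was 4.85, close to the C-type median. The interval lay above 1 for 41 of the 52 (78.8%) and below 1 for 0 of the 52. Of the 20203 genes with at least 20 fragments in the window and its surroundings, 14885 lay above 1 (73.7%) and 1423 below (7.04%). The share of the 52 above 1 was thus near that of all genes. By family the interval lay above 1 for 10 of 12 Pcdha, 14 of 22 Pcdhb, 12 of 12 Pcdhga and 5 of 6 Pcdhgb genes. Pcdha1, the lowest Pcdha gene, had a value of 0.741 (0.320 to 1.58) and no visible enrichment. Pcdhb16 (0.947, 0.576 to 1.52) and Pcdhb22 (0.978, 0.559 to 1.66) had none either. A high level did not always go with a high value. Pcdhga12, the highest of the 52 by level, had 2.26 (1.90 to 2.70), against 4.29 (2.69 to 6.97) at Pcdhga1. Pcdha12 had 2.40 (1.81 to 3.18), against a Pcdha median of 3.24, whereas Pcdhgb6 had 6.65 (4.98 to 8.98).

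**Figure D2:**
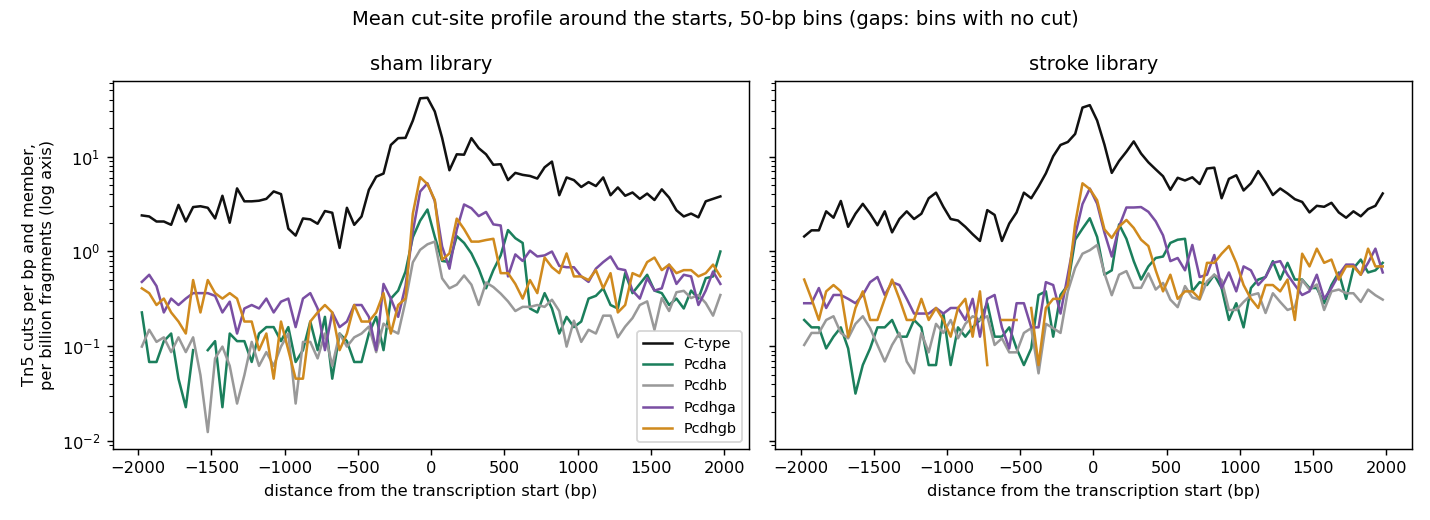
Tn5 cut sites per bp and member, scaled to the fragments of each library, on a log axis, in 50-bp bins against the distance from the TSS in bp, averaged over the members of each family, with sham on the left and stroke on the right. All families peak near the start in both libraries, highest for C-type, then Pcdhgb, Pcdhga and Pcdha, and lowest for Pcdhb, and gaps mark bins with no cut.

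Fragments shorter than the DNA wound around a nucleosome made up 73.5% of fragments at C-type windows in sham and 74.6% in stroke. At the other 52 the share was lower, at 64.5% (62.3 to 66.6) in sham and 63.1% (60.5 to 65.7) in stroke, and over all genes it was 77.5% and 78.2%. The alternate Pcdha windows had the smallest share, 56.0% (51.1 to 60.8) in sham and 54.6% (48.7 to 60.5) in stroke.

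The windows were also described by the reference sequence of the build, which is not shown. The ratio of observed to expected CpG dinucleotides had a median of 0.684 over the 12 Pcdha windows, 0.378 over the 22 Pcdhb, 0.588 over the 12 Pcdhga, 0.650 over the 6 Pcdhgb and 0.552 over all genes. Among C-type genes it ran from 0.233 at Pcdhgc5 to 0.797 at Pcdhgc3. Genes of like CpG content had a higher median than the 52. The 5027 other genes whose ratio lay in the middle range of the 52 (0.402 to 0.680) had median levels of 4.98 CPM in sham and 4.72 in stroke, against 0.395 and 0.398. Within the 52, level and CpG ratio had a rho of 0.513 in sham and 0.472 in stroke. The motif AGGNGGC, a short core of the CTCF binding site searched on both strands, was found in 10 of 12 Pcdha windows, 4 of 22 Pcdhb, 4 of 12 Pcdhga, 2 of 6 Pcdhgb and 4 of 5 C-type windows, and in 63.7% of the windows of all genes.

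Few nuclei held fragments at several members. Each nucleus was thinned to 5000 fragments, which kept 5218 sham and 3838 stroke nuclei, and 27.3% of sham nuclei (26.1 to 28.6) and 25.2% of stroke nuclei (23.8 to 26.6) then held a fragment at any of the 57 starts. Without thinning the shares were 42.9% and 39.5%, with at least 2 members in 15.2% and 12.9%, at least 3 in 4.46% and 3.86%, and at most 6 in either library. The share after thinning was 27.8% in sham and 24.3% in stroke glutamatergic neuron-like nuclei, 27.9% and 28.3% in GABAergic neuron-like nuclei, and 28.5% (22.8 to 34.6) and 33.1% (28.4 to 38.0) in astrocyte-like nuclei. At this depth the promoters chosen by a single neuron could not be read.

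The comparison between cell classes asked which members are open in which cells. Pcdhgc3 was higher in astrocyte-like, OPC-like and vascular and leptomeningeal-like nuclei, where it was the highest member in sham, than in glutamatergic neuron-like nuclei. It had 6.30 CPM in sham glutamatergic neuron-like nuclei (5.42 to 7.28) and 4.17 in stroke (3.15 to 5.43), against 26.6 (21.5 to 32.5) and 22.1 (18.1 to 26.7) in astrocyte-like nuclei. The astrocyte-like level was 4.22 times the glutamatergic one in sham (3.26 to 5.44) and 5.30 times in stroke (3.79 to 7.48). Promoter fragments, counted per window as above, were a larger percent of fragments in astrocyte-like nuclei, 22.8% against 14.8% in sham and 19.8% against 12.7% in stroke, and after scaling to them the ratios were 2.74 (2.11 to 3.53) and 3.41 (2.44 to 4.81). OPC-like nuclei had 20.4 CPM of Pcdhgc3 in sham and 13.5 in stroke, and vascular and leptomeningeal-like nuclei had 28.2 and 18.9. In stroke the OPC-like interval (7.17 to 23.0) overlapped that of GABAergic neuron-like nuclei (6.79 to 10.6). The levels were 3.23 and 3.23 times the glutamatergic level for OPC-like nuclei and 4.48 and 4.52 times for vascular and leptomeningeal-like nuclei, and scaled to promoters they were 2.58 and 2.51, and 2.89 and 2.99. The vascular class was shallow, with a median depth of 0.135 of the library's in sham and 0.301 in stroke, and its Pcdhgc3 values rest on 13 and 22 fragments.

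Pcdhgc3 also differed among the neurons. GABAergic neuron-like nuclei had 9.26 CPM in sham (7.93 to 10.8) and 8.55 in stroke (6.79 to 10.6), or 1.47 times (1.19 to 1.82) and 2.05 times (1.44 to 2.94) the glutamatergic level. Scaled to promoters, these ratios were 1.4 and 1.79. Pcdhgc4 had the same order, with 3.43 CPM in sham and 3.42 in stroke glutamatergic neuron-like nuclei and 6.25 and 6.02 in GABAergic neuron-like nuclei, or 1.82 times (1.38 to 2.41) and 1.76 times (1.17 to 2.66), and 1.74 and 1.54 times after scaling.

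The C-type genes of the Pcdha cluster had the opposite order to Pcdhgc3 between astrocyte-like and glutamatergic neuron-like nuclei. Pcdhac1 had 7.30 CPM in sham and 6.60 in stroke glutamatergic neuron-like nuclei and 3.11 and 2.92 in astrocyte-like nuclei. The ratio was 0.426 in sham (0.210 to 0.778) and 0.442 in stroke (0.232 to 0.783), and 0.276 and 0.285 after scaling. In vascular and leptomeningeal-like nuclei Pcdhac1 had 0 fragments in both libraries, which allows up to 6.52 CPM in sham and 2.57 in stroke (3 counts over the class). Pcdhac2 was lower in astrocyte-like nuclei by a smaller margin, at 0.673 times the glutamatergic level in sham (0.360 to 1.16) and 0.458 times in stroke (0.234 to 0.830), or 0.436 and 0.295 times after scaling.

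**Figure D3:**
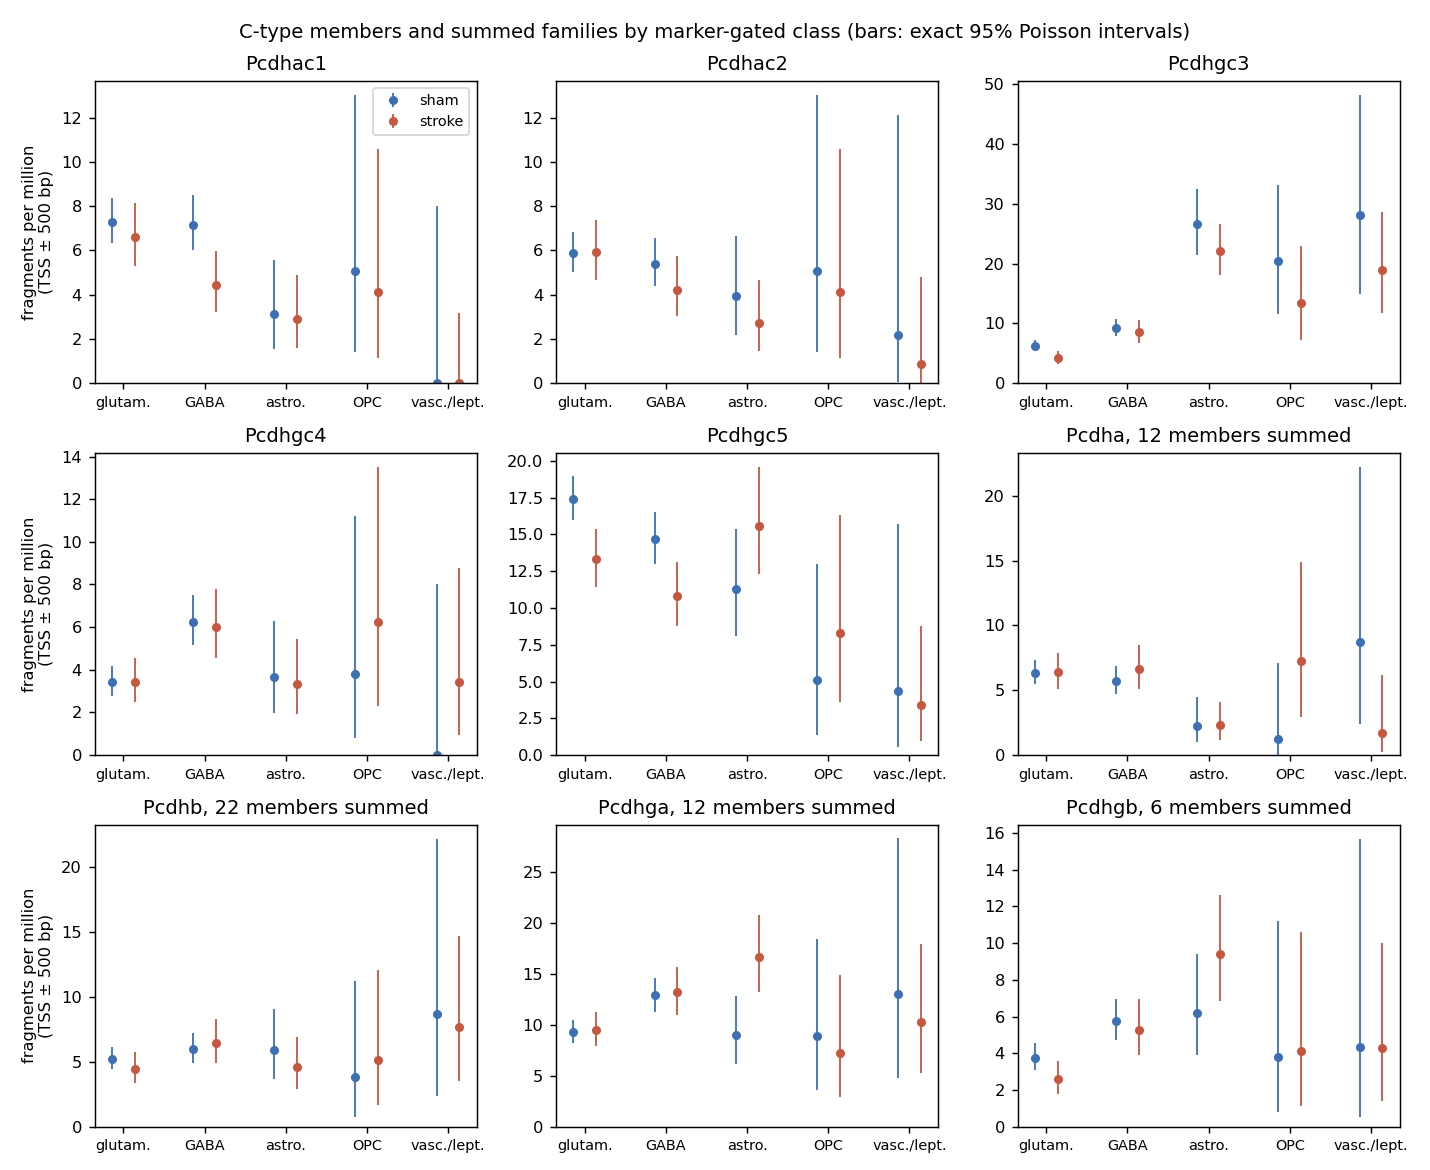
Level in CPM at each C-type member and summed over each family of alternate members, by class and library, with exact 95% Poisson intervals as bars (glutam., glutamatergic neuron-like; GABA, GABAergic neuron-like; astro., astrocyte-like; OPC, OPC-like; vasc./lept., vascular and leptomeningeal-like). Pcdhgc3 lies at 26.6 and 22.1 CPM in astrocyte-like nuclei against 6.30 and 4.17 in glutamatergic neuron-like nuclei, whereas Pcdhac1 and the summed Pcdha members lie lower in astrocyte-like nuclei.

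Pcdhgc5 was the most open member in both neuronal classes of the sham library. Glutamatergic neuron-like nuclei had 17.4 CPM (16.0 to 19.0) and GABAergic neuron-like nuclei had 14.7 CPM (13 to 16.5). In astrocyte-like nuclei it had 11.3 CPM in sham (8.08 to 15.4) and 15.6 in stroke (12.3 to 19.6). Its order between astrocyte-like and glutamatergic neuron-like nuclei was not the same in the 2 libraries. The ratio was 0.649 in sham (0.458 to 0.896) and 1.18 in stroke (0.886 to 1.55), and scaled to promoters it was below 1 in both, at 0.421 and 0.758.

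The alternate Pcdha promoters were lower in astrocyte-like than in glutamatergic neuron-like nuclei. The 12 genes together had 183 fragments in sham glutamatergic neuron-like nuclei (6.33 CPM) and 8 in astrocyte-like nuclei (2.26 CPM), and 84 (6.38 CPM) and 11 (2.29 CPM) in stroke. The ratio was 0.357 in sham (0.152 to 0.719) and 0.360 in stroke (0.173 to 0.677), and 0.232 in both after scaling. Pcdha12 had 31 glutamatergic fragments and 0 astrocyte-like fragments in sham, and 23 and 2 in stroke. The summed Pcdhb genes did not separate these classes, with ratios of 1.14 (0.684 to 1.80) and 1.02 (0.598 to 1.70), or 0.737 (0.443 to 1.17) and 0.660 (0.385 to 1.09) after scaling.

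The alternate Pcdhg promoters were not ordered alike, and Pcdhga in sham lay below 1 beyond counting error only after scaling. The 6 Pcdhgb genes had 3.77 CPM in sham (3.10 to 4.55) and 2.58 in stroke (1.79 to 3.61) glutamatergic neuron-like nuclei, and 6.22 (3.90 to 9.42) and 9.39 (6.85 to 12.6) in astrocyte-like nuclei. The astrocyte-like ratio was 1.65 in sham (0.993 to 2.63) and 3.64 in stroke (2.28 to 5.86), and 1.07 and 2.34 after scaling. The 12 Pcdhga genes had a ratio of 0.969 in sham (0.650 to 1.4) and 1.76 in stroke (1.31 to 2.35), and 0.628 (0.421 to 0.908) and 1.13 (0.844 to 1.51) after scaling. Over all 57 members the ratio was 1.11 in sham (0.969 to 1.27) and 1.41 in stroke (1.25 to 1.60), and it lay on the other side of 1 after scaling, at 0.719 and 0.911.

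The makeup of the member fragments differed between classes. The Pcdha cluster held 564 of the 1879 in sham and 249 of the 742 in stroke (33.6%) glutamatergic neuron-like nuclei, but 12.9% and 9.95% in astrocyte-like nuclei. The Pcdhg cluster held 61.9% and 58.5% in the former and 78.8% and 84.3% in the latter. GABAergic neuron-like nuclei lay between them, with 23.3% of stroke fragments in the Pcdha cluster and 66.8% of the fragments of either library in the Pcdhg cluster.

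Between the neuronal classes, the alternate Pcdhg promoters were higher in GABAergic neuron-like nuclei as a whole, whereas the Pcdhga and Pcdhgb intervals of the interneuron-like nuclei among them, gated on further markers, included 1. Over the 12 Pcdhga genes the ratio to glutamatergic neuron-like nuclei was 1.38 in sham (1.15 to 1.65) and 1.39 in stroke (1.08 to 1.80), and over the 6 Pcdhgb genes it was 1.53 (1.16 to 2.01) and 2.05 (1.30 to 3.26). After scaling the ratios were 1.31 and 1.21 for Pcdhga, and 1.46 and 1.78 for Pcdhgb, and the stroke interval of Pcdhga then included 1 (0.939 to 1.57). The intervals of the Pcdha genes (0.901 in sham, 1.04 in stroke) and the Pcdhb genes (1.14 and 1.44) included 1 in both libraries. In interneuron-like nuclei the Pcdhga genes had 4.77 CPM in sham (1.92 to 9.82), or 0.510 times the glutamatergic level (0.203 to 1.07), and 0.946 times in stroke (0.373 to 2.01), from 7 fragments in each library. Spiny projection neuron-like nuclei held 122 of the 239 Pcdhga fragments of the sham class, at 17.0 CPM. The remaining GABAergic neuron-like nuclei, 1081 in sham and 758 in stroke, had 11.1 CPM (9.11 to 13.4) and 11.6 CPM (9.14 to 14.6). Their Pcdhgb levels were 4.74 CPM (3.48 to 6.30) and 4.09 CPM (2.67 to 5.99). All these intervals overlapped those of glutamatergic neuron-like nuclei, which were 8.26 to 10.5 and 7.90 to 11.3 for Pcdhga, and 3.10 to 4.55 and 1.79 to 3.61 for Pcdhgb.

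By the size rule of 2-fold with at least 20 fragments in both classes together, 18 members could be compared in sham. Of these, 3 (Pcdhga7, Pcdhgb5 and Pcdhgc3) were higher in astrocyte-like than in glutamatergic neuron-like nuclei, against 22.6% of all genes compared, and 6 (Pcdha5, Pcdha11, Pcdha12, Pcdhac1, Pcdhga3 and Pcdhga9) were lower, against 12.6%. In stroke 10 could be compared, with 4 higher (Pcdhga10, Pcdhga11, Pcdhga12 and Pcdhgc3), against 24.1%, and 3 lower (Pcdha12, Pcdhac1 and Pcdhac2), against 9.53%. Pcdhgc3 was thus the 1 member named as higher in both libraries, and Pcdha12 and Pcdhac1 were named as lower in both. After scaling, the higher members numbered 3 in sham, against 9.95% of genes, and 1 in stroke, against 10.4%, where Pcdhga10 (1.47), Pcdhga11 (1.45) and Pcdhga12 (1.56) no longer reached 2-fold. The lower ones then numbered 10 of 18 in sham, against 21.1%, and 3 of 10 in stroke, against 15.9%. For 5 of the 6 members lower in sham before scaling, the astrocyte-like count was 0 or 1 fragment. The minimum was set on both classes together. In sham, 3 counts were worth 0.849 CPM in astrocyte-like nuclei and 0.104 CPM in glutamatergic neuron-like nuclei. Shallow members low in astrocyte-like nuclei thus reached the minimum more readily than those high there. Pcdhgb1, with 4 astrocyte-like and 9 glutamatergic fragments in sham (ratio 3.63), did not reach it. The numbers of higher and lower members therefore cannot show which direction was more common.

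Within the GABAergic neuron-like nuclei, gates on further markers gave 518 sham and 202 stroke spiny projection neuron-like nuclei, the main neurons of the striatum, and 161 and 102 interneuron-like nuclei. Summed over the 52 alternate members, spiny projection neuron-like nuclei had 39.5 CPM in sham (35.1 to 44.4) and 43.2 in stroke (35.2 to 52.5), against 24.7 (22.9 to 26.6) and 22.9 (20.4 to 25.7) in glutamatergic neuron-like nuclei. The ratio was 1.60 in sham (1.39 to 1.84) and 1.89 in stroke (1.49 to 2.37), and 1.54 and 1.73 after scaling. The ratio was above 1 for Pcdhgb (2.03 in sham and 3.32 in stroke), Pcdhga (1.82 and 1.99) and Pcdhb (1.57 and 1.82), and after scaling the stroke interval of Pcdhb included 1 (1.67, 0.939 to 2.84). The Pcdha genes had 1.05 and 1.21, and both intervals included 1. Pcdhgc5 was also higher here than in interneuron-like nuclei, at 22.8 CPM in sham (19.5 to 26.6) and 18 in stroke (13 to 24.3), or 1.97 times (1.19 to 3.47) and 2.81 times (1.11 to 9.09) the interneuron-like level. Interneuron-like nuclei had 13.6 CPM of the 52 in sham and 32.0 in stroke, from 20 and 25 fragments. This was 0.552 times the glutamatergic level in sham (0.335 to 0.859) and 1.4 times in stroke (0.890 to 2.1). Spiny projection neuron-like nuclei were higher beyond counting error in sham (2.90 times, 1.84 to 4.82) but not in stroke (1.35 times, 0.864 to 2.18). At least 2-fold higher than in the other GABAergic neuron-like nuclei were 7 of 8 spiny projection neuron markers and 5 of 8 interneuron markers, which are the genes the gates used.

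Microglia and other myeloid-like nuclei were too few in sham (25) for a comparison. In stroke, 231 such nuclei had 64 fragments at the C-type members (95% interval 15.4 to 25.6 CPM), below the 33.4 CPM (30.4 to 36.7) of glutamatergic neuron-like nuclei of the same library, and 24.7 CPM of the other 52 (19.6 to 30.8). Pcdhgc3 ran the other way, with 27 of the 64 fragments, or 2.02 times the glutamatergic level (1.23 to 3.26) and 1.74 times after scaling (1.06 to 2.81). Oligodendrocyte-like nuclei had 19.1 CPM of the C-type members in sham and 15.6 in stroke, from 8 and 12 fragments.

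The comparison of stroke with sham asked whether accessibility of the clusters differed between the injured hemisphere and sham brain. Over all genes with at least 20 fragments the median ratio of stroke over sham was 0.928 (log2 -0.108), and scaling to promoter fragments added 0.156 on the log2 scale. The C-type members summed to 39.2 CPM in sham (37.8 to 40.6) and 33.2 in stroke (31.6 to 34.8), a ratio of 0.847 (0.797 to 0.899) that became 0.944 (0.889 to 1.0) after scaling. The other 52 summed to 26.9 CPM in sham (25.8 to 28.2) and 26.3 in stroke (25 to 27.7), a ratio of 0.977 (0.911 to 1.05) that became 1.09 (1.02 to 1.17), or 1.07 (0.997 to 1.15) without Pcdhga12. Their contrast with their own surroundings was lower in stroke, at 2.87 times in sham (2.68 to 3.08) and 2.40 times in stroke (2.22 to 2.59). The C-type members had 5.13 (4.79 to 5.51) and 4.66 (4.28 to 5.09), and all genes 7.98 and 7.41, each as a sum over its genes. By cluster the ratio was 0.850 for Pcdha (0.777 to 0.930), 0.999 for Pcdhb (0.856 to 1.16) and 0.907 for Pcdhg (0.858 to 0.959), and these became 0.948, 1.11 and 1.01 after scaling, so that Pcdhb and Pcdhg moved to the other side of 1. With all called barcodes, 6979 in sham and 8740 in stroke, the ratio was 0.647 for the Pcdha cluster, 0.664 for the Pcdhg cluster and 0.584 for the C-type members, but 1.14 for the Pcdhb cluster (1.01 to 1.30).

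Among the C-type genes, the ratio of stroke over sham was 0.727 for Pcdhac1 (0.621 to 0.849), 0.809 for Pcdhgc5 (0.731 to 0.894) and 0.966 for Pcdhgc3 (0.853 to 1.09). Pcdhac2 had 0.879 (0.747 to 1.03) and Pcdhgc4 0.877 (0.734 to 1.04). The intervals of Pcdhac1 and Pcdhgc5 lay below the all-gene median of 0.928 and those of the other C-type genes included it. This was not particular to C-type genes. Their median ratio was 0.877, beside 0.871 over 12 non-clustered protocadherins, 0.904 over 43 genes within 1 Mb and 0.896 over 83 ribosomal protein genes. Among the non-clustered protocadherins, the intervals of Pcdh8, Pcdh9, Pcdh10 and Pcdh20 also lay below 0.928, and those of the others included it. After scaling, Pcdhac1 had 0.810 (0.692 to 0.946), Pcdhgc5 0.901 (0.814 to 0.997) and Pcdhgc3 1.08 (0.951 to 1.22).

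Among the 32 members with at least 20 fragments in each library, the lowest ratios were those of Pcdhga3, Pcdhac1 and Pcdhga5. Pcdhga3 had 83 fragments in sham (1.13 CPM) and 34 in stroke (0.644 CPM), a ratio of 0.570 (0.371 to 0.859), and Pcdhga5 had 49 and 26, a ratio of 0.738 (0.441 to 1.21). The highest ratios were those of Pcdhga4, Pcdhb13 and Pcdhgb1. Pcdhga4 had 41 fragments in sham (0.558 CPM) and 48 in stroke (0.910 CPM), a ratio of 1.63 (1.05 to 2.54). Pcdhb13 had 24 and 23, a ratio of 1.33 (0.719 to 2.47), and Pcdhgb1 had 37 and 35, a ratio of 1.32 (0.805 to 2.15). Of these alternate genes, only the intervals of Pcdhga3 and Pcdhga4 did not include 1, also after scaling (0.413 to 0.958 and 1.17 to 2.83). The genes were picked for extreme ratios among the 32, and the intervals were not adjusted for that choice.

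**Figure D4:**
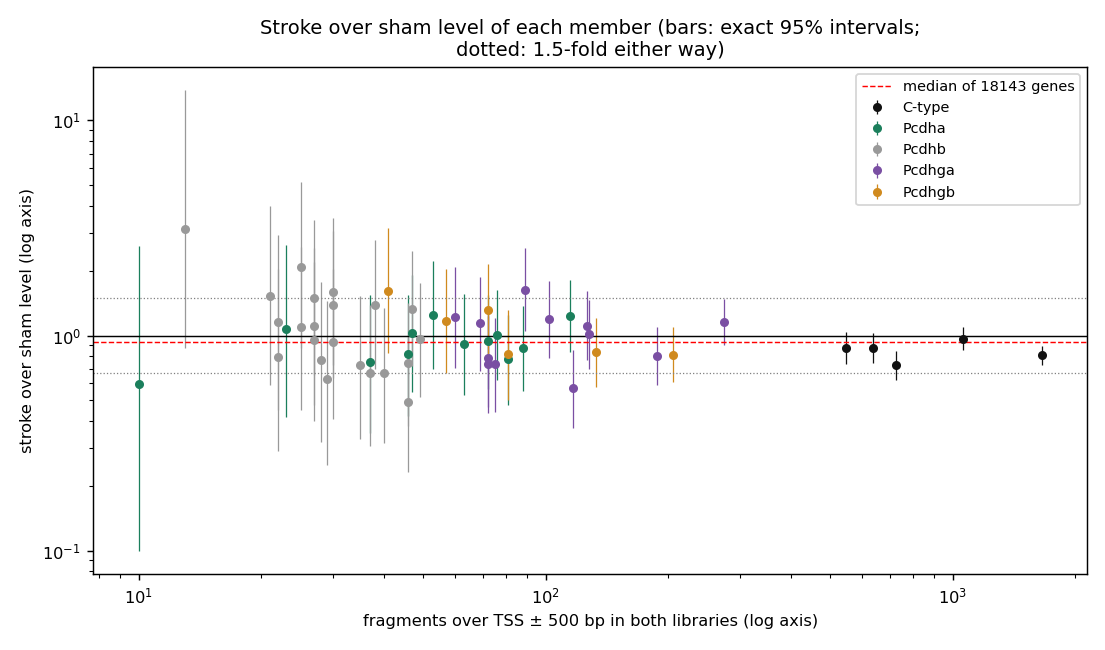
Ratio of the stroke over the sham level of each member against its fragments in both libraries, both on log axes, with exact 95% intervals as bars, colours for families, a red dashed line at the all-gene median of 0.928 and dotted lines at 1.5-fold either way. The ratios spread widely below 100 fragments, and the 5 C-type members on the right lie between 0.727 and 0.966.

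At least 20 fragments in both libraries together were held by 55 members. Of these, 5 were at least 1.5-fold higher in stroke (9.09%), beside 8.30% of the 18143 genes tested, and 3 were at least 1.5-fold lower (5.45%), beside 2.77%. The higher members were Pcdhb3, Pcdhb4, Pcdhb18, Pcdhga4 and Pcdhgb2, and the lower ones were Pcdhb6, Pcdhb14 and Pcdhga3. Of these, only the intervals of Pcdhga4, Pcdhb14 (0.232 to 0.972) and Pcdhga3 did not include 1, and that of Pcdhb14 did after scaling (0.258 to 1.08). After scaling, 8 were higher (14.5%), beside 11.8%, and 2 were lower (3.64%), beside 1.44%. The upward share lay near the background on the unscaled values, and 5 of the 8 members named above were Pcdhb genes with 21 to 46 fragments in both libraries. The 2 members not tested were Pcdha1, with 10 fragments in all, and Pcdhb8, with 13.

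The libraries differed in their cells, so the ratio was also taken within classes. Over all members it was 0.866 in glutamatergic neuron-like nuclei (0.795 to 0.944), 0.897 in GABAergic neuron-like nuclei (0.815 to 0.987) and 1.10 in astrocyte-like nuclei (0.941 to 1.30), where the all-gene medians were 0.886, 0.953 and 0.890. After scaling it was 1.0, 0.95 and 1.27. In glutamatergic neuron-like nuclei Pcdhgc3 had 182 fragments in sham and 55 in stroke, a ratio of 0.663 (0.481 to 0.901), and after scaling the interval included 1 (0.767, 0.557 to 1.04). In GABAergic neuron-like nuclei Pcdhac1 had 133 and 42, a ratio of 0.619 (0.427 to 0.882), or 0.655 (0.452 to 0.934) after scaling. In glutamatergic neuron-like nuclei Pcdhac1 had 0.905 (0.696 to 1.17), or 1.05 (0.806 to 1.35) after scaling.

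In astrocyte-like nuclei the summed Pcdhga promoters were higher in the stroke library, and Pcdhga12 was the 1 gene of the 12 whose interval lay above 1. The 12 Pcdhga genes had 32 fragments in sham (9.05 CPM, 6.19 to 12.8) and 80 in stroke (16.7 CPM, 13.2 to 20.8), a ratio of 1.84 (1.21 to 2.87) and of 2.12 after scaling. Pcdhga12 had 8 fragments in sham (2.26 CPM) and 30 in stroke (6.26 CPM), a ratio of 2.77 (1.24 to 6.98) and of 3.18 (1.42 to 8.02) after scaling. The other 11, set apart after the values were seen, had 24 and 50 fragments, a ratio of 1.54 whose interval included 1 (0.927 to 2.61), or 1.77 (1.06 to 3.0) after scaling. Among them Pcdhga2 (0.492), Pcdhga7 (0.632) and Pcdhga9 (0.738) had ratios below 1, with intervals that included it. The 52 alternate members together had a ratio of 1.4 in astrocyte-like nuclei (1.07 to 1.85), and 1.26 (0.939 to 1.70) without Pcdhga12. It was 0.929 for glutamatergic neuron-like nuclei (0.809 to 1.06) and 1.04 for GABAergic neuron-like ones (0.902 to 1.20). The astrocyte-like ratio was not the highest. Interneuron-like nuclei had 2.35 (1.25 to 4.47), from 20 sham and 25 stroke fragments, and oligodendrocyte-like nuclei had 2.25 (0.966 to 6.09), or 2.70 (1.16 to 7.29) after scaling, from 7 and 29 fragments. Median depth of the astrocyte-like nuclei was 5153 fragments in sham and 7725 in stroke, and its part in these ratios was not tested.

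Single members were seldom deep enough within a class. In glutamatergic neuron-like nuclei 23 members had at least 20 fragments, of which 2 (Pcdha12 and Pcdhga7) were at least 1.5-fold higher in stroke, beside 4.27% of genes, and 5 (Pcdha10, Pcdhga3, Pcdhga8, Pcdhgb7 and Pcdhgc3) were lower, beside 6.29%. In GABAergic neuron-like nuclei 21 had them, of which 1 (Pcdha9) was higher, beside 4.11%, and 4 (Pcdhac1, Pcdhga3, Pcdhga5 and Pcdhgb5) were lower, beside 5.48%. After scaling, Pcdha10 (0.747), Pcdhga8 (0.668) and Pcdhgc3 (0.767) were no longer 1.5-fold lower in glutamatergic neuron-like nuclei. Pcdhga4 then reached 1.5-fold higher in both classes, at 1.52 in each. The share over all genes was not taken after scaling within classes. Pcdhga3 was the 1 gene named as lower in both classes, with 25 and 6 fragments in sham and stroke in the first and 32 and 10 in the second. Both intervals of Pcdhga3 included 1, at 0.177 to 1.31 and 0.269 to 1.28. Among the other members named, the unscaled interval did not include 1 only for Pcdhgc3 in the first class and for Pcdhac1 and Pcdhga5 (0.0195 to 0.690) in the second. After scaling, the interval of Pcdha12 in the first class lay above 1 (1.05 to 3.34) and that of Pcdhgc3 included it.

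Enhancers are known downstream of the constant exons of the Pcdha cluster and beyond the Pcdhg cluster, and the locus was therefore also read in 1-kb bins. Outside 1500 bp of any protein-coding start, 830 bins had a median of 0.0817 CPM in sham and 0.114 in stroke. The bin chr18:37218001-37219000, between the last Pcdha exons and Pcdhb1, had 17.0 CPM in sham and 10.7 in stroke (ratio 0.627, 0.566 to 0.693), more than any Pcdha promoter. It had 18.9 CPM in sham and 12.9 in stroke glutamatergic neuron-like nuclei and 6.79 and 7.30 in astrocyte-like nuclei, ratios of 0.360 (0.229 to 0.541) and 0.566 (0.382 to 0.818). The bin chr18:37842001-37843000, just past the last Pcdhg exon, had 14.8 CPM in sham and 10.7 in stroke, and an astrocyte-like ratio of 0.324 in sham (0.193 to 0.512) and 0.796 in stroke (0.555 to 1.12). These bins are named by position only, since no list of known enhancers was used here. The astrocyte-like ratios of bins, here and below, are not scaled to promoters. The promoter share of astrocyte-like nuclei was 1.54 times the glutamatergic one in sham and 1.55 times in stroke, so scaling would lower each ratio.

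The bin chr18:37824001-37825000, 622 bp from the annotated start of Gm38182 and 4988 bp past the start of Pcdhgc5, overlaps exons of both and had the reverse order. It had 39.6 CPM in sham and 25.2 in stroke astrocyte-like nuclei (140 and 121 fragments) and 3.11 and 3.19 in glutamatergic neuron-like nuclei (90 and 42 fragments). The astrocyte-like level was 12.7 times the glutamatergic one in sham (9.69 to 16.8) and 7.92 times in stroke (5.53 to 11.5). Other open bins lay in an intron of Diaph1, the neighbouring gene for an actin-nucleating formin, with 18.3 CPM in sham and 12.4 in stroke at chr18:37877001-37878000 and 16.7 and 14.2 at chr18:37852001-37853000. Their ratios of stroke over sham were 0.677 (0.616 to 0.744) and 0.850 (0.775 to 0.931). The bin just past the last Pcdhg exon had 0.727 (0.655 to 0.805), and chr18:37824001-37825000 had 1.04 (0.901 to 1.20). A lower level in stroke was thus not particular to the bin between the Pcdha and Pcdhb clusters. The ratios of stroke over sham of bins are not scaled to promoters either.

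**Figure D5:**
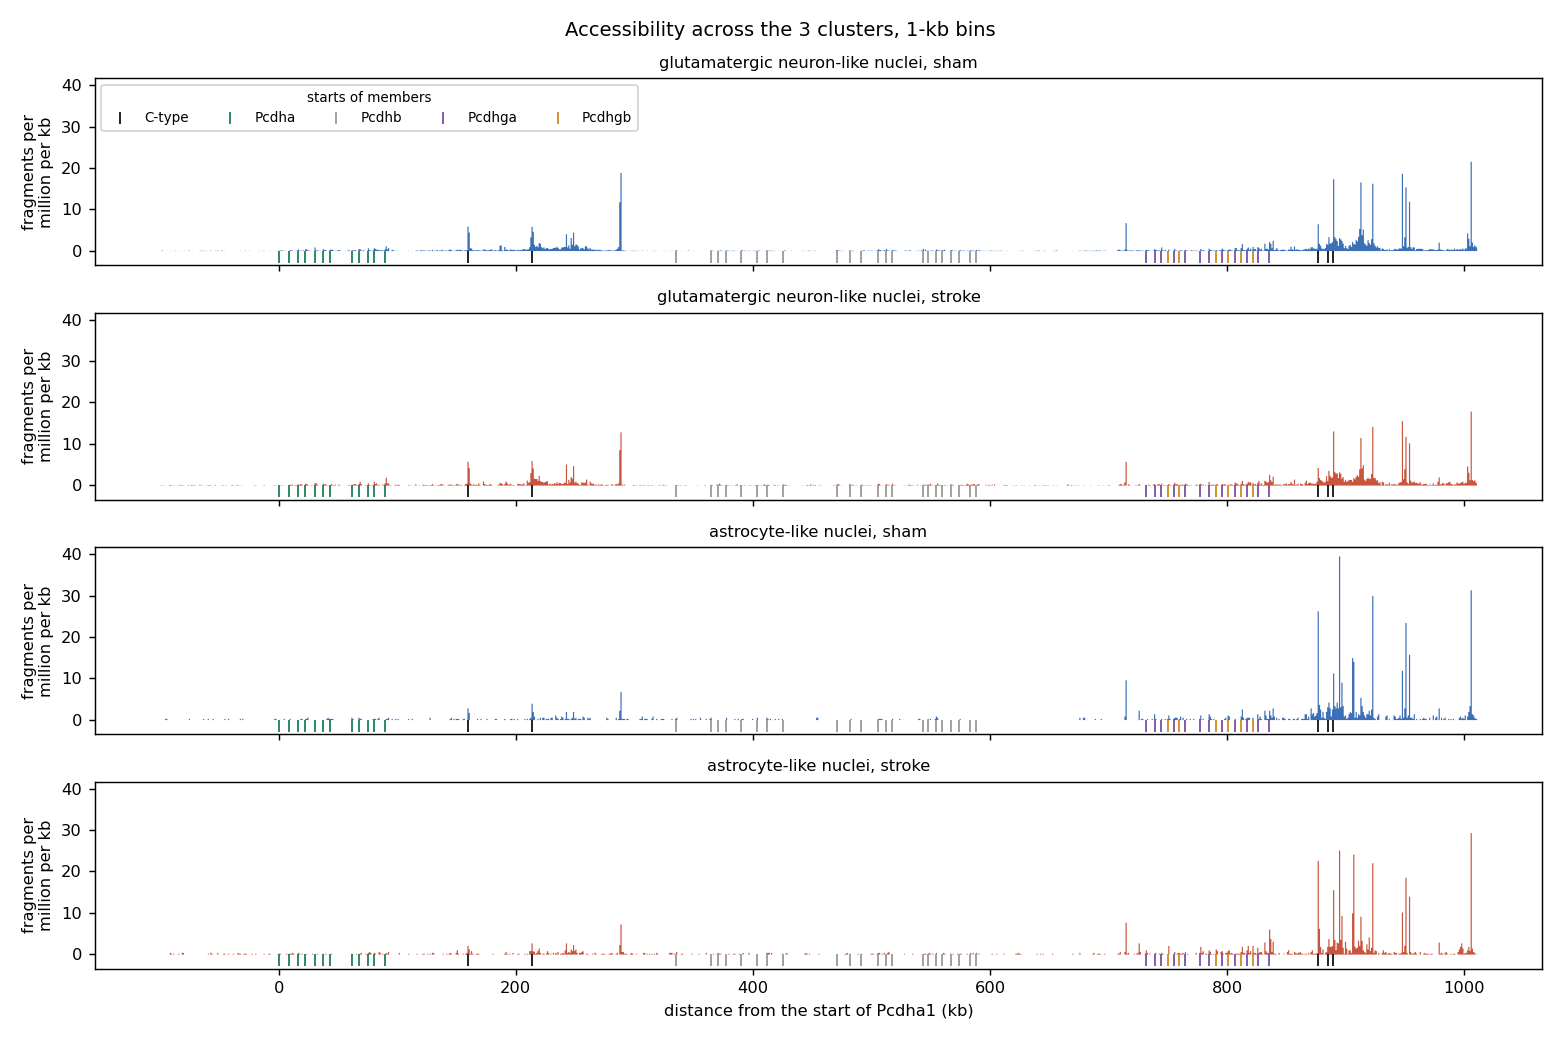
Level in CPM in 1-kb bins across the 3 clusters against the distance from the start of Pcdha1 in kb, for glutamatergic neuron-like and astrocyte-like nuclei of each library, with coloured ticks at the starts of members. The tallest astrocyte-like bin in sham (39.6 CPM) lies past the start of Pcdhgc5, whereas the bin between the Pcdha and Pcdhb clusters is higher in glutamatergic neuron-like nuclei (18.9 against 6.79 CPM in sham).

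Other genes of the same pathway and place were listed beside the members. The 12 non-clustered protocadherins, such as Pcdh9 and Pcdh17, had median levels of 5.92 CPM in sham and 5.59 in stroke, close to the C-type members and far above the 52. The 17 architectural and silencing factors known at the clusters (among them Ctcf, Rad21, Nipbl, Wapl, Smchd1 and Dnmt3b) had medians of 11.6 and 11.7 CPM. Of the 16 factors with at least 20 fragments, 0 were past 1.5-fold in either direction between the libraries, beside 8.30% of all genes higher in stroke and 2.77% lower. Their median ratio was 0.922. Of the 12 non-clustered protocadherins, 0 were higher and 1 was lower (8.33%). The 43 protein-coding genes within 1 Mb of the clusters had medians of 6.13 and 6.37 CPM, against 0.395 and 0.398 for the 52 members. By the same 1.5-fold rule, 5 of the 43 were higher in stroke (11.6%) and 1 was lower (2.33%).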

How the data were processed

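Processed files of 1 sham and 1 stroke library were used, each from nuclei pooled over 4 brains. The authors aligned reads and called barcodes with Cell Ranger ATAC 2.1.0 (build mm10; Cell Ranger ARC is also named in the submitters' processing notes) and deposited raw counts, as fragment positions with a count of read pairs each and as per-barcode counts. Here each fragment was counted a single time, whatever its read pairs. Called barcodes with over 20% of fragments in peaks were kept, 1 of the filters of the study.

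Fragments overlapping each TSS ± 500 bp (GENCODE M21; names checked against RefSeq GRCm38.p6) were counted per library and class and divided by the fragments of the same nuclei (CPM). One of the 2 entries under the symbol Pcdha11 carries the RefSeq name Pcdha10, which is used here, and Pcdhgb8, annotated as a polymorphic pseudogene, was left out. For classes, nuclei were embedded by latent semantic indexing of 5-kb tiles, leaving out the locus and 1 Mb on either side. Marker fragments over gene bodies and 2 kb upstream were summed over the 50 nearest nuclei (components 2 to 30), scored with a pseudocount of 5 CPM, and gated at 0.35 of the 99.9th percentile of the score. No doublet step is given for these libraries in the sources used here and no doublet caller was run, but nuclei passing more than 1 gate were left out of classes.

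Members are counted in full. Values are given for the C-type genes, the highest and lowest member of each family in sham, the 3 highest and 3 lowest ratios of stroke over sham among members with at least 20 fragments in each library, and the highest member per class. Others named were named for being few. Counts of members need at least 20 fragments in both groups together and 1.5-fold between libraries or 2-fold between classes. With 1 library per condition no test was made. Intervals are exact at 95%, and a count of 0 is read against a floor of 3 counts, which is 0.0408 CPM over all sham nuclei and 0.0568 CPM over all stroke nuclei and higher in a class with fewer fragments. The counting steps were tested on simulated data. The members, lists and classes were chosen with earlier results of these data known. The scoring over neighbouring nuclei was chosen after marker counts were seen and before member levels by class were computed.

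Alternatives were windows of 250 and 1000 bp, promoter scaling, all called barcodes, 1000 to 100000 fragments in peaks, Tn5 cut sites, a stricter gate (0.5), multi-gate nuclei assigned to their highest class, other fragment minimums and no thinning. Neighbours from components 2 to 10 and equal weight for 3 classes were added after seeing the data. Python 3.11.15, numpy 2.4.6, scipy 1.17.1, pandas 2.3.3, scikit-learn 1.9.0, numba 0.67.0 and matplotlib 3.10.9 were used.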

Additional observations from a re-analysis of the deposited data

Results flagged for a closer look

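The ratio of stroke over sham at Pcdhgc5 lay on opposite sides of 1 in neurons and astrocyte-like nuclei. It was 0.762 in glutamatergic neuron-like nuclei (0.638 to 0.906, from 504 sham and 175 stroke fragments), 0.733 in GABAergic neuron-like nuclei (0.578 to 0.923, from 273 and 102) and 1.38 in astrocyte-like nuclei (0.930 to 2.08, from 40 and 75). The summed Pcdhgb genes also lay on opposite sides of 1, at 0.684 in glutamatergic neuron-like nuclei (0.451 to 1.01, from 109 and 34 fragments) and 1.51 in astrocyte-like nuclei (0.887 to 2.64, from 22 and 45). These differences between classes were not tested, since each condition was represented by a single library. The mix within the GABAergic class also differed. Spiny projection neuron-like nuclei, where Pcdhgc5 was higher than in interneuron-like nuclei, were 518 of 1760 in sham and 202 of 1062 in stroke. The part of this mix in the GABAergic ratio was not tested. The interval of Pcdhgc5 in astrocyte-like nuclei and both intervals of Pcdhgb included 1. After scaling to promoters, Pcdhgc5 had 0.881 (0.738 to 1.05), 0.776 (0.612 to 0.977) and 1.59 (1.07 to 2.39) in the 3 classes, so that the glutamatergic interval then included 1 and the astrocyte-like one lay above it. The scaled Pcdhgb ratios were 0.792 (0.522 to 1.17) and 1.73 (1.02 to 3.03).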

How the results depend on the processing

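Of 161 values of 21 results under other settings, 119 stayed within the counting interval or within 1.5 times a count and the others moved by more. Of the ratios, 8 values lay on the other side of 1 from the reported one. Scaling to promoters took the stroke over sham ratio of the Pcdhg cluster to 1.01 and of glutamatergic neuron-like nuclei to 1.0, and the astrocyte-like over glutamatergic ratio of all members to 0.719 in sham and 0.911 in stroke. It also moved the Pcdha cluster to 0.948, the C-type members to 0.944, and Pcdhgc3 in astrocyte-like over glutamatergic neuron-like nuclei to 2.74 in sham and 3.41 in stroke. All called barcodes gave 0.647 for the Pcdha cluster, 0.664 for the Pcdhg cluster, 0.584 for C-type members and 1.14 for the Pcdhb cluster. The Pcdhb cluster, at 0.999 as reported, was also 1.17 with windows of 1000 bp, 1.11 with promoter scaling and 1.01 by cut sites, but 0.961 with 250 bp, 0.983 with 1000 to 100000 fragments in peaks and 0.905 with equal weight for 3 classes, which gave 0.986 for the Pcdhg cluster. Members higher in stroke numbered 8 with 1000 bp, 8 with promoter scaling, 9 with all called barcodes and 1 with at least 50 fragments. Members lower in stroke numbered 7 with 250 bp, 14 with all called barcodes and 1 with at least 50 fragments. Members higher in astrocyte-like nuclei in sham numbered 5 by cut sites, 1 with the stricter gate, 12 with no minimum and 1 with at least 50 fragments, and those lower numbered 10 with promoter scaling, 12 by cut sites, 3 with the stricter gate, 23 with no minimum and 1 with at least 50 fragments. In stroke those higher numbered 2 with 250 bp, 1 with promoter scaling, 7 by cut sites, 1 with the stricter gate, 16 with no minimum, 2 with at least 50 fragments and 2 with neighbours from components 2 to 10, and those lower numbered 5 by cut sites and 19 with no minimum. The share of nuclei with a member fragment was 42.9% in sham and 39.5% in stroke without thinning, and 31.4% and 30.9% with 1000 bp. Beyond what each setting changes by construction, the cause was not tested.

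No paired analysis was possible because each of the groups holds a single library, and for the same reason no replicate was left out. Depth limited single members, of which 32 of 57 had at least 20 fragments in each library. Within classes, 10 to 23 members reached the minimum, and the counts of members there moved with it.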
